A study of Homo sapiens with 12 samples.

Results

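The transcriptome of HEK293 cells depleted of RBM17 was compared directly with that of the same cells depleted of CHERP. The 3 libraries labelled RBM17 knockdown and the 3 labelled CHERP knockdown were taken by their siRNA label, 6 of the 12 libraries in the series, and of 60554 gene identifiers 27250 had enough reads to be tested. RBM17 and CHERP knockdown cells had each received an ON-TARGETplus SMARTpool, a pool of siRNAs, against the named gene. The other 2 groups of 3 libraries stayed outside the fit and are given only as levels beside it: cells with a SMARTpool against U2SURP, and control cells with a non-targeting siRNA that the labels do not call a pool. All cells were at passage 10 and were grown in DMEM with fetal bovine serum. The labels give the source as HEK293 and the cell line as HEK293T, the derivative of this human embryonic kidney line that carries the SV40 large T antigen. Total RNA was made into stranded poly(A)-selected libraries with a TruSeq kit. No label states that libraries came from separate cultures, so the p-values reflect how far the libraries of a group lie apart, and that spread may be technical alone. The library numbers in the labels form 1 run for RBM17 knockdown and another for CHERP knockdown, and any batch that follows them cannot be told apart from the siRNA.

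RBM17, CHERP and U2SURP are RNA-binding proteins that bind one another and associate with the U2 snRNP, the particle that recognises the branch point of an intron. RBM17 and CHERP both carry a G-patch, a short glycine-rich domain that in several proteins contacts DEAH-box helicases, and CHERP takes its name, calcium homeostasis endoplasmic reticulum protein, from earlier work on calcium release. The direct contrast asks in which genes mRNA levels differed between the knockdowns. All libraries of a knockdown had the same siRNA pool. Effects of a pool on other genes therefore cannot be told apart from loss of the targeted protein.

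The 6 libraries held 274301499 to 306374638 counts each, within the range of 252505520 to 320986785 over the series. Levels are CPM, read counts scaled to a common library total with TMM factors so that most genes match between libraries, and are given for libraries 1, 2 and 3 of a group in that order. Differences are log2 of RBM17 knockdown over CHERP knockdown with their standard error (SE), and a gene was called where the Benjamini-Hochberg adjusted p of edgeR's quasi-likelihood test was below 0.05. RBM17 knockdown libraries had reads on 35648 to 37005 genes against 37621 to 37984 in CHERP knockdown libraries, and non-coding genes took 2.76 to 2.92% against 3.63 to 3.72% of their counts. Mitochondrially encoded genes took 4.64 to 5.02% of counts in RBM17 knockdown and 3.98 to 4.61% in CHERP knockdown, against 7.88 to 8.70% in control. Library 1 differed more from libraries 2 and 3 than these differed from each other in both groups. In such bulk libraries, fewer cells of a type and less RNA per cell cannot be told apart.

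Each targeted mRNA was low only in its own knockdown among these groups. RBM17 (ENSG00000134453; GRCh38 chr10:6088987-6117457, plus strand) stood at 26.7, 25.6 and 26.8 CPM in RBM17 knockdown, 118, 121 and 126 CPM in CHERP knockdown and 109, 113 and 113 CPM in control. CHERP (ENSG00000085872; chr19:16517889-16542530, minus strand) stood at 18.6, 17.7 and 17 CPM in CHERP knockdown, 70.0, 74 and 75.5 CPM in RBM17 knockdown and 59.6, 60.6 and 57.7 CPM in control. The groups were far apart for both targets, which matches the labels. RBM17 mRNA was 4.6-fold lower (log2 difference -2.20 ± 0.051, adjusted p = 2.4e-13) and CHERP mRNA 4.12-fold higher in RBM17 knockdown (log2 difference 2.04 ± 0.056, adjusted p = 9.43e-13). Against control, CHERP mRNA was higher in RBM17 knockdown by 0.30 on the log2 scale and RBM17 mRNA was higher in CHERP knockdown by 0.12. U2SURP, the third partner, read 515, 517 and 494 CPM after RBM17 knockdown and 516, 556 and 596 CPM after CHERP knockdown; its ranges overlapped and it was not called (log2 difference -0.13 ± 0.057, adjusted p = 0.0709), but its difference was called in 4 other settings: -0.28 with upper quartile scaling, -0.23 with a minimum of 1 CPM in 3 libraries, -0.24 with protein-coding genes alone and -0.18 without library 1 of CHERP knockdown.

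Of the 27250 genes, 14483 (53.1%) were called, 7614 higher in RBM17 knockdown (27.9%) and 6869 lower (25.2%). The median difference of all genes was -0.04 on the log2 scale, and these shares and this median are the background over all genes. With upper quartile scaling, which shifted the median of all genes by -0.16, the split was 5127 higher and 9911 lower. With an offset for GC content and length, added after the data were seen, it was 6482 higher and 8003 lower. The direction of small differences therefore depends on the scaling. The counts of a list under upper quartile scaling are given where either moves by over 1.5 times. A fit of protein-coding genes alone shifted the median by -0.11. At 2-fold or more, 965 genes (3.54%) were higher and 2238 (8.21%) lower. Protein-coding genes alone had 41.9% higher and 22.2% lower with a median of 0.10. Those at 20 to under 100 CPM had 54.0% higher and 16.4% lower (median 0.17). At 100 CPM or more, 53.8% were higher and 17.7% lower (median 0.16). Many lists below hold protein-coding genes of such levels. A list whose shares lie near these does not stand out from genes of its level. Against control, 15636 genes (57.4%) were called in RBM17 knockdown and 13864 (50.9%) in CHERP knockdown; these comparisons share their control libraries, so their values are only placed side by side.

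**Figure D1:**
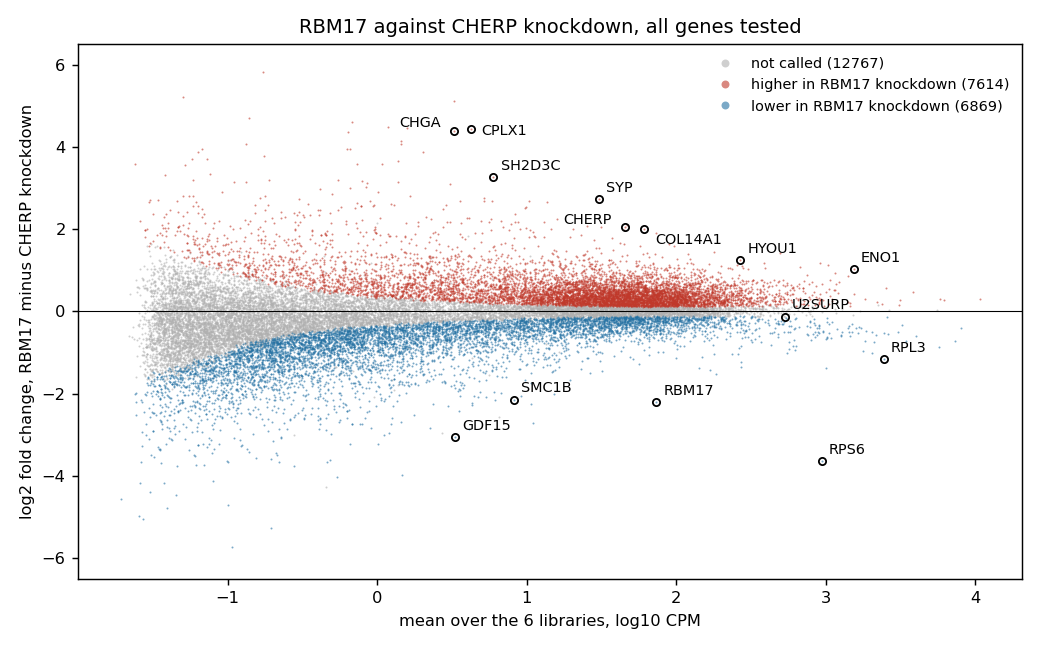
Each point is 1 of the 27250 tested genes, with the mean level over the 6 libraries in CPM on a log10 axis and the log2 difference, RBM17 knockdown minus CHERP knockdown, on the vertical axis; colours mark called genes. RPS6 lies at -3.64, and CHGA and CPLX1 lie above 4.

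Among the protein-coding genes with the largest differences at 5 CPM or more, those on the higher side included SH2D3C, L1CAM and SYP. SYP, which encodes the synaptic vesicle protein synaptophysin, stood at 56.2, 52.3 and 50.8 CPM in RBM17 knockdown, 9.22, 7.43 and 7.51 CPM in CHERP knockdown and 21.9, 19.6 and 21.1 CPM in control. SH2D3C, an SH2-domain adaptor, stood at 11.8, 10.6 and 10.2 CPM, 1.46, 0.964 and 0.958 CPM and 4.16, 3.58 and 3.41 CPM in the same order. L1CAM, a neural cell adhesion molecule, stood at 9.8, 8.22 and 8.9 CPM, 1.35, 1.33 and 1.3 CPM and 4.19, 3.85 and 4.25 CPM. In all 3 genes every control library lay between the knockdowns: the transcript was higher than control after RBM17 knockdown and lower after CHERP knockdown. The direct log2 differences were 2.72 ± 0.080 for SYP (adjusted p = 4.08e-12), 3.27 ± 0.14 for SH2D3C (adjusted p = 1.14e-09) and 2.75 ± 0.093 for L1CAM (adjusted p = 8.42e-12). Also on this side were PTPRO (2.68), CLSTN2 (2.68), NPTXR (2.65), TMEM145 (2.55), SCN3B (2.52) and CARMIL2 (2.37), which include a sodium channel subunit, a calsyntenin and a pentraxin receptor. Of these, CLSTN2 and SCN3B also had every control library between the knockdowns. CLSTN2 stood at 16.7, 18.7 and 18.2 CPM in RBM17 knockdown and 12.9, 11.5 and 12.7 CPM in control but at 2.72, 2.86 and 2.8 CPM in CHERP knockdown. SCN3B stood at 17.2, 16.1 and 16.2 CPM, 6.44, 6.02 and 6.13 CPM and 3.04, 2.89 and 2.72 CPM in that order.

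On the lower side RPS6 stood alone in size. RPS6 (ENSG00000137154; chr9:19375715-19380254, minus strand), a protein of the small ribosomal subunit and a substrate of S6 kinase, stood at 146, 132 and 142 CPM in RBM17 knockdown, 1665, 1731 and 1851 CPM in CHERP knockdown and 1260.4, 1232 and 1434 CPM in control. The 12.5-fold difference (log2 -3.64 ± 0.064, adjusted p = 8.03e-15) was larger than that of either targeted gene. Against control the RPS6 mRNA was lower by 3.22 on the log2 scale in RBM17 knockdown and higher by 0.42 in CHERP knockdown. Whether its fall belongs to the siRNA pool or to loss of RBM17 was not tested. RPS6 overlaps the antisense gene AL391834.2, and reads of its pseudogenes may be shared with it. The tested pseudogenes RPS6P25 and RPS6P16 averaged 0.50 and 0.05 CPM in RBM17 knockdown, and 0.85 and 0.09 CPM in CHERP knockdown. Among the other genes on this side, SMC1B and NUPR1 were raised after CHERP knockdown. SMC1B, a meiotic cohesin subunit, stood at 3.21, 3.3 and 2.59 CPM in RBM17 knockdown, 11, 14.4 and 14.8 CPM in CHERP knockdown and 3.07, 3.27 and 3.09 CPM in control. NUPR1, a stress-induced nuclear protein, stood at 7.3, 5.44 and 5.42 CPM, 21.2, 26.1 and 25.7 CPM and 6.42, 5.85 and 6.55 CPM in the same order. Against control neither was called in RBM17 knockdown (log2 -0.05 and -0.05) and both were higher in CHERP knockdown (2.09 and 1.96), giving direct differences of -2.14 ± 0.12 (adjusted p = 6.5e-09) and -2.01 ± 0.12 (adjusted p = 1.68e-07). INPP5D, an inositol phosphatase, stood at 2.37, 4.03 and 4.82 CPM against 12.4, 20.0 and 20.6 CPM, with no overlap but a wide spread (log2 -2.24 ± 0.37, adjusted p = 0.00758). LGR6, a receptor for R-spondins, stood at 2.89, 1.74 and 2.13 CPM against 9.74, 11 and 9.49 CPM, with 3.31, 2.69 and 3.16 CPM in control, and was called in opposite directions against control in the knockdowns. TNXB (-1.98), FAAH (-1.73), MYH15 (-1.67) and PYGM (-1.59) completed this side with the target RBM17. Among genes of other biotypes, DGCR5 (1.54), PPP1R14BP3 (1.36) and VPS9D1-AS1 (1.28) were the most raised. AATBC, at 2.99, 2.85 and 2.93 CPM against 19.3, 19.1 and 19.4 CPM, ENSG00000281205 (-2.08) and LINC02367 (-2.05) were the most lowered. Of the 20 protein-coding genes named for size, 6 overlap another tested gene, and their reads may be shared with it.

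**Figure D2:**
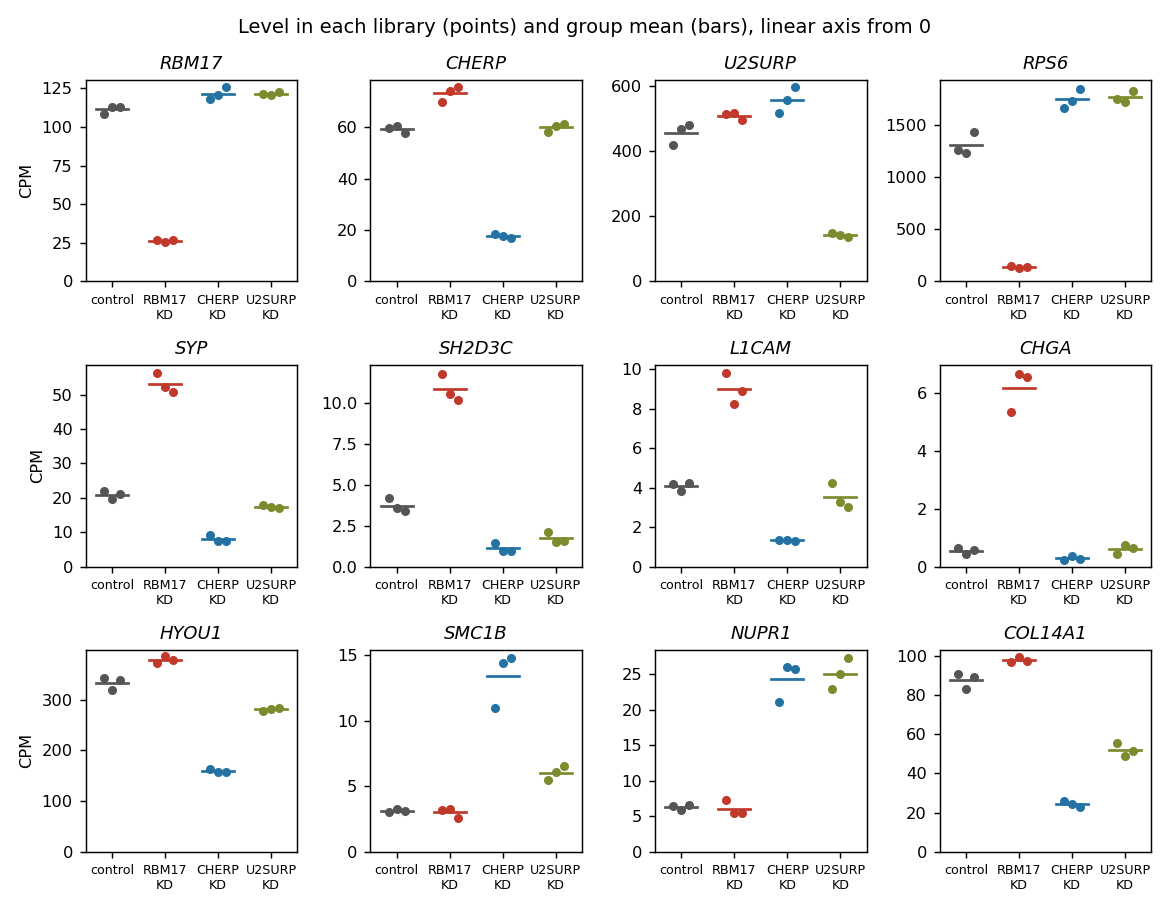
Levels in CPM, on linear axes from 0, of 12 genes in the 3 libraries of each of the 4 groups, with points for libraries and bars for group means. SYP, SH2D3C and L1CAM have control levels between the knockdowns, RPS6 is low only after RBM17 knockdown, and SMC1B is at its highest after CHERP knockdown.

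Genes of regulated secretion and the synapse were higher in RBM17 than in CHERP knockdown as groups. Of 14 tested granins and prohormone-processing genes, whose products fill dense-core vesicles, 12 were higher and 0 lower, with a median log2 difference of 1.14. CHGA, which encodes chromogranin A, stood at 5.34, 6.67 and 6.57 CPM in RBM17 knockdown, 0.225, 0.381 and 0.274 CPM in CHERP knockdown and 0.631, 0.444 and 0.577 CPM in control, a 21-fold difference (log2 4.40 ± 0.16, adjusted p = 4.45e-11). SCG3, secretogranin III, stood at 3.26, 4.23 and 3.95 CPM against 0.204, 0.311 and 0.258 CPM (log2 3.88 ± 0.16). CHGB (4.06), the prohormone convertase gene PCSK2 (2.16) and VGF (1.71), at 0.738, 0.649 and 0.610 CPM against 0.239, 0.232 and 0.140 CPM, followed. All of these rest on transcripts that were scarce in CHERP knockdown, where CHGA, SCG3 and VGF were below 1 CPM in every library. The list's median was 0.45 against control in RBM17 knockdown and -0.83 in CHERP knockdown.

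Synaptic vesicle and exocytosis genes had 26 of 37 tested members higher and 4 lower (median 0.78). CPLX1, a complexin that clamps and triggers vesicle fusion, stood at 7.22, 8.93 and 8.07 CPM in RBM17 knockdown, 0.425, 0.358 and 0.347 CPM in CHERP knockdown and 1.34, 0.912 and 1.28 CPM in control, a 21.4-fold difference (log2 4.42 ± 0.12, adjusted p = 9.43e-13). CPLX2 (4.47) and the SNARE gene SNAP25 (3.65) differed by similar amounts and the phosphoprotein gene SYN1 by 1.77, while SYN2 (-0.29) and the calcium sensor gene SYT1 (-0.21) were lower. Neuronal cytoskeleton genes had 24 of 37 higher and 3 lower (median 0.63; 5 lower without library 1 of RBM17 knockdown and 6 under upper quartile scaling), with MAP2 (2.61), GAP43 (1.89), STMN3 (1.81), the neurofilament-family genes INA (1.35) and NEFM (1.05) higher and the tau gene MAPT (-0.35) lower. Neuronal ion channels were more mixed, 19 of 35 higher and 8 lower (median 0.57). CACNA1B, the pore of the N-type calcium channel, stood at 22.3, 23.6 and 23.7 CPM in RBM17 knockdown, 6.17, 5.79 and 5.56 CPM in CHERP knockdown and 7.54, 7.28 and 6.55 CPM in control (log2 1.99 ± 0.065, adjusted p = 5.87e-12). KCNC1 (2.00) was higher but its relative KCNC4 (-0.41) and CACNA1D (-0.62) were lower, so neighbours in 1 channel family went in both directions. Against control, the medians of these lists were 0.56, 0.56 and 0.02 in RBM17 knockdown and -0.23, -0.28 and -0.49 in CHERP knockdown for vesicle, cytoskeleton and channel genes in that order.

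Many neuronal genes are repressed outside neurons by REST, a zinc finger protein that binds the RE1 element with RCOR and other corepressors, and the splicing factors SRRM3 and SRRM4 shape REST mRNA in neural and endocrine cells. REST stood at 59.97, 53 and 52 CPM in RBM17 knockdown, 71.3, 70.4 and 74.3 CPM in CHERP knockdown and 53.9, 58 and 57.6 CPM in control. It was lower in RBM17 than in CHERP knockdown (log2 -0.39 ± 0.058, adjusted p = 3.48e-05), and RBM17 knockdown itself was near control (-0.04, not called). SRRM3 stood at 8.35, 9.32 and 9.38 CPM against 3.49, 2.95 and 3.17 CPM, with 4.57, 4.3 and 4.41 CPM in control (log2 1.49 ± 0.087, adjusted p = 1.95e-09). Of 21 tested genes of REST and its corepressors, 11 were higher and 4 lower with a median of 0.13, and 5 higher and 7 lower with a median of -0.03 under upper quartile scaling; RCOR2 (0.82) was higher. Protein-coding genes of the secretion and neuronal lists with a RefSeq promoter (GRCh38.p14; 250 bases before to 50 after the start) numbered 89. The cyclic AMP response element TGACGTCA, searched on both strands, was in 7 of them (7.87%; 3.44% of all 12668 protein-coding promoters of tested genes), those of CHGA, KIF1A, KIF5C, PCSK1, SYN1, TUBB2A and VGF, of which 5 were higher and 0 lower. An RE1 match with at most 4 mismatches, a motif added after the data were seen, was in 4 (4.49%, against 1.10% of all). These were the promoters of SYN1, TUBB2B, UNC13A and VGF, all higher. Outside the lists, the 135 genes with an RE1 match had 49 higher and 33 lower. Their median was 0.09, beside 0.10 for all protein-coding genes. Outside these lists and that of immediate-early genes, the 428 genes with the cyclic AMP element had 231 higher and 73 lower (median 0.20). Within the lists, 54.3% (ion channels) to 85.7% (granins) of all tested members were higher, with or without a match. The promoters of CHGA (chr14:92922900-92923169, plus strand), VGF (chr7:101165550-101165819, minus strand) and SYN1 (chrX:47619979-47620107, minus strand) are shown because they hold these letters beside large differences; capitals mark the cyclic AMP element and, in VGF and SYN1, also the RE1 match.
CHGA: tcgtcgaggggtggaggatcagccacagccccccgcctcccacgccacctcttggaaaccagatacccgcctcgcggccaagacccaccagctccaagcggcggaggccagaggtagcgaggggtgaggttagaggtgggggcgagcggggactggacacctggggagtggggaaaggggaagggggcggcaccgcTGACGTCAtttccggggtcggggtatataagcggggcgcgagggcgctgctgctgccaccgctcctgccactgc
VGF: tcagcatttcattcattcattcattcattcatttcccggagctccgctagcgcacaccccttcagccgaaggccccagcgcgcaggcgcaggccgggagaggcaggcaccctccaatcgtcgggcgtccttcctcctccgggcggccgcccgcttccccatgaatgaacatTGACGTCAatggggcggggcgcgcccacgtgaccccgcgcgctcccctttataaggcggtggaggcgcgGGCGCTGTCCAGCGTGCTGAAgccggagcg
SYN1: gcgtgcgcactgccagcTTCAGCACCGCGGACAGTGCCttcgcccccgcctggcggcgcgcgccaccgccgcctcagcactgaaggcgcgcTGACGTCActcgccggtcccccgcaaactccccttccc

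Genes for chaperones of the endoplasmic reticulum (ER) were higher in RBM17 than in CHERP knockdown almost throughout the list. Of 26 members, all tested, 23 (88.5%) were higher and 0 lower, with a median log2 difference of 0.40; under upper quartile scaling 17 were higher and 2 lower with a median of 0.25, and 2 were also lower without library 1 of RBM17 knockdown. These proteins fold secretory cargo and their genes are the classical targets of the unfolded protein response. HYOU1, an HSP70-like nucleotide exchange factor of the ER lumen, stood at 371, 386 and 378 CPM in RBM17 knockdown, 164, 157 and 158 CPM in CHERP knockdown and 342, 319 and 339 CPM in control (log2 1.25 ± 0.048, adjusted p = 3.51e-11). SDF2L1, a cochaperone, stood at 15.5, 15.3 and 14.4 CPM, 6.76, 6.57 and 6.54 CPM and 10.6, 9.62 and 11.5 CPM in the same order (log2 1.19 ± 0.065). HSPA5, which encodes BiP, stood at 769, 708 and 707 CPM, 481, 493 and 488 CPM and 816, 765 and 842 CPM (log2 0.58 ± 0.052, adjusted p = 1.79e-07). No library of the 2 knockdowns overlapped in these genes, and CHERP knockdown was below control in each; against control RBM17 knockdown was higher in HYOU1 (0.18) and SDF2L1 (0.51) and slightly lower in HSPA5 (-0.15). CALR, the calcium-binding lectin chaperone calreticulin, stood at 394, 380.5 and 357 CPM against 241, 221 and 218 CPM, with 396, 379 and 437 CPM in control (log2 0.73 ± 0.056). HSP90B1, or GRP94, had another pattern: it stood at 605, 692 and 669 CPM in RBM17 knockdown, 459, 495 and 526 CPM in CHERP knockdown and 1178, 1165 and 1325 CPM in control, below control in both, by 0.90 and 1.31 on the log2 scale. DNAJB11 (0.84), CRELD2 (0.66), PDIA6 (0.57) and CANX (0.29) were also higher. SEL1L (0.07), EDEM1 (-0.09) and DNAJB9 (-0.22) were the 3 that were not called. The list's median was 0.02 against control in RBM17 knockdown and -0.39 in CHERP knockdown.

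The promoters of these chaperones hold the ER stress element, a CCAAT box and a CCACG box at a fixed spacing that NF-Y and ATF6 bind, more often than promoters at large. On either strand and with no mismatch it was in 7 of the 25 promoters at hand (28.0%), those of CALR, CANX, CRELD2, HSP90B1, HSPA5, PDIA6 and XBP1, against 20 of 12668 (0.158%). All 7 genes were higher in RBM17 than in CHERP knockdown, as were 23 of the 26 list members. Outside the list, the 13 genes with an exact match had 2 higher and 3 lower (median -0.08). With at most 1 mismatch it was in 13 of 25 (52.0%) against 319 of 12668 (2.52%). Outside the list the 306 genes with such a match had 148 members higher and 51 lower with a median of 0.15, beside 0.10 for all protein-coding genes. HSP90B1 (chr12:103930160-103930359, plus strand) holds 4 matches on both strands, HSPA5 (chr9:125241324-125241593, minus strand) holds 1, and shorter stretches show the matches of HYOU1 (chr11:119057186-119057227, minus strand), SDF2L1 (chr22:21642100-21642158, plus strand), CALR (chr19:12938364-12938422, plus strand) and CRELD2 (chr22:49918534-49918592, plus strand). Capitals mark matches with at most 1 mismatch; on the opposite strand the element reads from CGTGG to ATTGG. These are shown as examples of exact and near matches among the chaperones whose values are given here.
HSP90B1: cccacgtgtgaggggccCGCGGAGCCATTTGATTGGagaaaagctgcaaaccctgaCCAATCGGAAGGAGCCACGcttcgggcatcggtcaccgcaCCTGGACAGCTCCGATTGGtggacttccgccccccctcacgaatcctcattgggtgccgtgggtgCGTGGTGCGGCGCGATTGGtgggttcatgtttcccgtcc
HSPA5: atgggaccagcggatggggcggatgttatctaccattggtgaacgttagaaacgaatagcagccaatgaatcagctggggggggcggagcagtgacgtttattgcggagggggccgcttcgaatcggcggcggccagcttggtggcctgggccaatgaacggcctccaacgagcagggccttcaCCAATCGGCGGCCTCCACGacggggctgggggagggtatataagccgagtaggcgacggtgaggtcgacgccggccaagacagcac
HYOU1: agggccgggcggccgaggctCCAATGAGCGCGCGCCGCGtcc
SDF2L1: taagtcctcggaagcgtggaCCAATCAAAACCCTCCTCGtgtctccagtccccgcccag
CALR: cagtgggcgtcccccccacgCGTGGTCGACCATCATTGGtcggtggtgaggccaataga
CRELD2: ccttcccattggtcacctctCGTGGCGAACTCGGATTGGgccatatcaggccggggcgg

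Because CHERP was named for calcium release from the ER, genes of ER calcium handling were examined as their own list. Of 26 tested, 13 were higher and 3 lower in RBM17 than in CHERP knockdown (5 lower without library 1 of RBM17 knockdown), with a median of 0.17; under upper quartile scaling 11 were higher and 8 lower with a median of 0.02. STIM1, the sensor of ER calcium that opens store-operated channels, stood at 82.1, 86.9 and 83.2 CPM in RBM17 knockdown, 57.2, 50.8 and 49.2 CPM in CHERP knockdown and 98.1, 91.1 and 98.7 CPM in control (log2 0.68 ± 0.058, adjusted p = 1.06e-07). The inositol trisphosphate receptor gene ITPR1 stood at 82.8, 84.4 and 81.6 CPM, 66.5, 62.5 and 59.8 CPM and 88.7, 85.5 and 85 CPM in the same order (log2 0.40 ± 0.051), while its relative ITPR3 was lower (-0.39). Thus STIM1 and ITPR1 were lowest after CHERP knockdown. The calcium pump gene ATP2A2 (0.30) was higher, and the ryanodine receptor gene RYR1, at 1.09, 1.47 and 1.38 CPM against 2.05, 2.48 and 2.21 CPM, was lower (-0.78). Against control the list's median was -0.07 in RBM17 and -0.24 in CHERP knockdown.

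Glycolytic genes were higher in RBM17 knockdown, 17 of 21 with 1 lower (median 0.58; 15 and 2 under upper quartile scaling); the list's median against control was 0.61 in RBM17 knockdown and 0.03 in CHERP knockdown. ENO1, enolase, stood at 1784, 2156 and 2267 CPM in RBM17 knockdown, 972, 1027 and 1054 CPM in CHERP knockdown and 993, 995 and 1051 CPM in control (log2 1.02 ± 0.076, adjusted p = 3.85e-08). LDHA, lactate dehydrogenase A, stood at 1254, 1459.7 and 1580.3 CPM, 568, 709 and 691 CPM and 685, 704 and 748 CPM in the same order (log2 1.13 ± 0.096). TPI1 (0.88), PKM (0.71), PGK1 (0.58) and the glucose transporter gene SLC2A1 (0.91) were also higher. Glyceraldehyde-3-phosphate dehydrogenase did not follow: GAPDH stood at 1526, 1746 and 1846 CPM against 1608, 1717 and 1785 CPM, with a log2 difference of 0.00 ± 0.069 (95% interval -0.14 to 0.15, adjusted p = 0.98). The 1 lower gene, SLC16A3, exports lactate and stood at 1.43, 1.48 and 1.6 CPM in RBM17 knockdown, 5.36, 5.85 and 5.75 CPM in CHERP knockdown and 1.7, 1.66 and 1.52 CPM in control (log2 -1.91 ± 0.095).

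Cytosolic protein quality control was also higher in RBM17 knockdown. Proteasome subunits had 25 of 31 higher and 1 lower (median 0.38; 2 lower under upper quartile scaling), with PSMD14 at 104, 122 and 120.2 CPM against 60.4, 63.2 and 66.3 CPM, PSMC5 (0.74) higher and PSMA2 (-0.35) lower; PSMA2 lost its call without library 3 of either group, at -0.27. Cytosolic heat shock proteins had 17 of 24 higher and 3 lower (median 0.37). HSP90AA1, the inducible cytosolic HSP90, stood at 1688, 1932 and 1898 CPM in RBM17 knockdown, 977, 986 and 1051 CPM in CHERP knockdown and 755, 809.8 and 902 CPM in control (log2 0.87 ± 0.061). The constitutive HSP70 gene HSPA8 went the other way, at 912, 1053 and 1068 CPM, 1413, 1506 and 1669.5 CPM and 1057, 1075 and 1211 CPM in that order (log2 -0.60 ± 0.071); HSPH1 (0.83) was higher and HSPA4L (-0.23) lower. The CCT chaperonin and prefoldin list had 9 of 14 higher and 2 lower (median 0.25), with CCT5 (0.52) higher and PFDN4 (-0.31) lower. Both knockdowns were above control in the medians of the proteasome list (0.74 and 0.34, RBM17 knockdown first) and the heat shock list (0.66 and 0.31). The heat shock element, GAA triplets in alternating orientation searched on either strand, was in 7 of 22 heat shock promoters against 0.505% of all. Of these 7, CHORDC1, DNAJA1, DNAJB6, HSP90AA1, HSP90AB1, HSPA8 and HSPD1, 6 were higher and 1 lower. Outside the list, the 57 genes with the element had 25 higher and 14 lower (median 0.04).

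Respiratory chain genes of the nucleus had 36 of 47 higher and 4 lower (median 0.30), among them UQCRC1 (0.73) of complex III and NDUFB10 (0.83) of complex I. NDUFV2 was lower, at 1.24, 0.919 and 1.04 CPM against 2.28, 2.41 and 2.4 CPM (log2 -1.15 ± 0.12), far below the list's median level of 90.9 CPM. Of the 13 mRNAs encoded in mitochondrial DNA, 10 were higher and 0 lower (median 0.22), but 2 were higher with upper quartile scaling (median 0.06) and 6 without library 2 of RBM17 knockdown or library 2 or 3 of CHERP knockdown. MT-ND1 stood at 2949, 3135 and 2971 CPM in RBM17 knockdown, 2197, 2022 and 1920.2 CPM in CHERP knockdown and 3874, 3582 and 4035 CPM in control (log2 0.56 ± 0.060), and MT-CO3 (0.47) and MT-CO1 (0.30) followed, the latter not called under upper quartile scaling. Both knockdowns were below control in this list, with medians of -0.67 and -0.91.

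**Figure D3:**
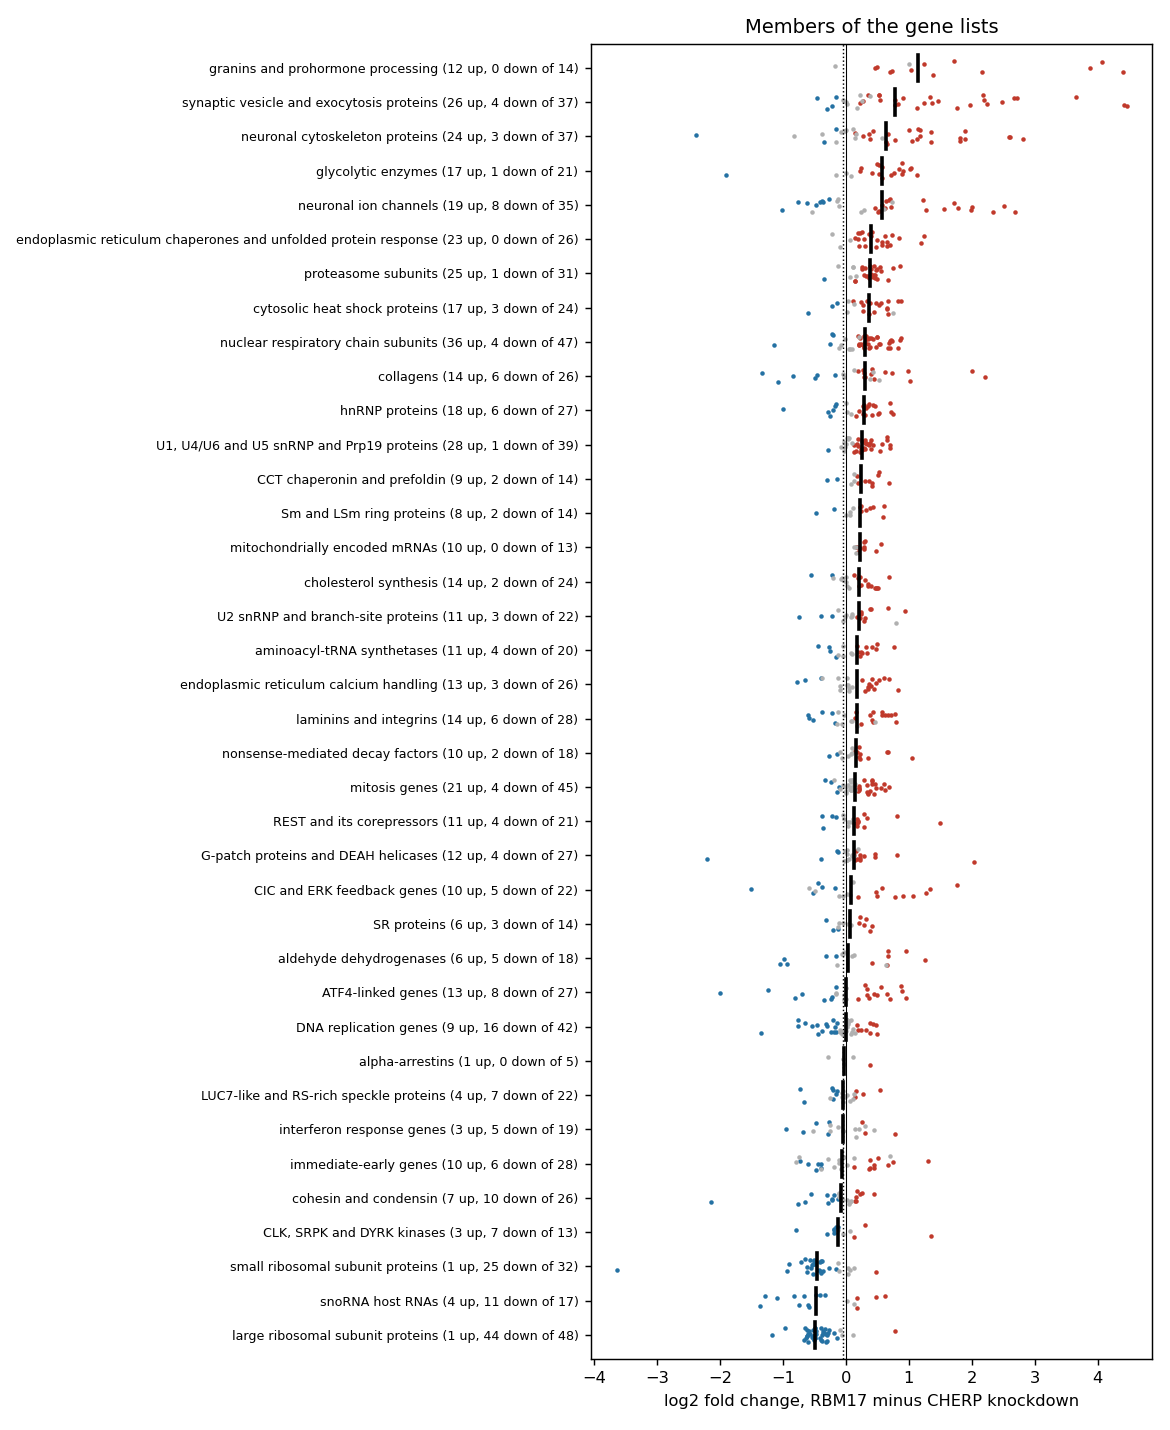
Each point is 1 tested gene of a list, placed by its log2 difference, RBM17 knockdown minus CHERP knockdown, and coloured by its call; the black bar is the list's median and the dotted line the median of all genes at -0.04. Granins lie at 1.14 at one end, and ribosomal proteins and snoRNA hosts near -0.5 at the other.

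Splicing genes, the machinery in which both proteins work, differed by modest amounts and in both directions. U2 snRNP and branch-site proteins, U2SURP among them, had 11 of 22 higher and 3 lower with a median of 0.20; under upper quartile scaling 6 were higher and 7 lower with a median of 0.04, and without library 2 of RBM17 knockdown the median was 0.11. SF3B6, the p14 subunit that contacts the branch point adenosine, stood at 179.5, 202 and 197 CPM in RBM17 knockdown, 96.5, 102 and 104 CPM in CHERP knockdown and 117, 122 and 139 CPM in control (log2 0.93 ± 0.055, adjusted p = 2.18e-09). DDX39B, the helicase UAP56 of spliceosome assembly and mRNA export, stood at 224, 238 and 258 CPM, 406, 403 and 394 CPM and 379, 378 and 339.9 CPM in the same order (log2 -0.74 ± 0.056, adjusted p = 2.8e-08). The groups did not overlap in either gene. SNRPA1 (0.67), the U2 A′ protein, and U2AF2 (0.38), which binds the polypyrimidine tract, were higher, and DDX46 (-0.40) was lower. SF3B1 (0.23), the branch point clamp, was called higher but lost the call under upper quartile scaling and when protein-coding genes were fitted alone. Proteins of the U1, U4/U6 and U5 particles and the Prp19 complex had 28 of 39 higher and 1 lower (median 0.25), and 16 higher and 8 lower under upper quartile scaling. SNRNP40 (0.70) and USP39 (0.65) of the tri-snRNP led, and the U1 A protein gene SNRPA (-0.28) was lower. Sm and LSm ring proteins had 8 of 14 higher and 2 lower (median 0.23), and 5 and 3 under upper quartile scaling (median 0.07), with LSM4 (0.60) and LSM8 (-0.48) at the ends.

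Lists of regulators of splice site choice differed from one another. hnRNP proteins had 18 of 27 higher and 6 lower (median 0.29), with RALY (0.75) and HNRNPAB (0.70) higher. HNRNPA1, a repressor of splice sites, stood at 1295, 1410.1 and 1397 CPM in RBM17 knockdown, 2474, 2802 and 2960.0 CPM in CHERP knockdown and 1647, 1715 and 1911 CPM in control, lower than control in one and higher in the other (log2 -1.01 ± 0.067, adjusted p = 7.84e-09). SR proteins had 6 of 14 higher and 3 lower (median 0.06; 5 lower without library 1 of CHERP knockdown), and 3 higher and 6 lower under upper quartile scaling (median -0.10), with SRSF9 (0.41) and SRSF7 (0.39) higher and SRSF11 (-0.31) lower. LUC7-like and arginine-serine-rich speckle proteins had 4 of 22 higher and 7 lower (median -0.04; 2 higher without library 2 of RBM17 knockdown), and 2 higher and 15 lower under upper quartile scaling (median -0.20), with LUC7L (0.55) higher and RSRC2 (-0.72) and NKTR (-0.66) lower. Kinases of the CLK, SRPK and DYRK families had 3 of 13 higher and 7 lower (median -0.12): SRPK3 (1.36) was higher and DYRK1B (-0.80) lower. SRPK3 was nonetheless below control in both knockdowns, at 1.83, 1.94 and 1.88 CPM and 0.794, 0.619 and 0.789 CPM against 4.33, 4.11 and 3.55 CPM. G-patch proteins and DEAH-box helicases, a list that holds CHERP and RBM17 themselves, had 12 of 27 higher and 4 lower (median 0.12), and 4 higher and 9 lower under upper quartile scaling (median -0.03). Without library 3 of RBM17 or library 2 or 3 of CHERP knockdown 2 were lower. In this list GPATCH4 (0.81) was higher and SUGP2 (-0.39) lower. Nonsense-mediated decay factors had 10 of 18 higher and 2 lower (median 0.16), but 4 higher and 4 lower under upper quartile scaling (median 0.00). They were led by UPF3B, at 124, 149 and 150.02 CPM against 63.4, 70.8 and 70.6 CPM (log2 1.04 ± 0.071), and RBM8A (0.66).

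Ribosomal protein genes were the most uniform group on the lower side. Of 48 large-subunit genes, 44 (91.7%) were lower in RBM17 than in CHERP knockdown and 1 higher (median -0.49), and of 32 small-subunit genes 25 were lower and 1 higher (median -0.46). RPL3, a core protein of the large subunit, stood at 1433, 1512 and 1581 CPM in RBM17 knockdown, 3188, 3461 and 3512 CPM in CHERP knockdown and 2466, 2342 and 2687 CPM in control (log2 -1.17 ± 0.060, adjusted p = 5.07e-10). RPL13A stood at 1184, 1200.0 and 1216 CPM, 2299, 2365 and 2386 CPM and 1706, 1629 and 1877 CPM in the same order (log2 -0.97 ± 0.051), and RPS9 at 403, 442 and 433 CPM, 791, 807 and 849.6 CPM and 581, 537 and 624 CPM (log2 -0.94 ± 0.055). In these 3 genes control lay between the knockdowns in every library. Against control the medians of the large- and small-subunit lists were -0.01 and 0.02 in RBM17 knockdown and 0.44 and 0.41 in CHERP knockdown. The 2 exceptions were RPS10, at 11.7, 12 and 12.6 CPM against 8.96, 8.58 and 8.38 CPM (log2 0.48 ± 0.066), and RPL17, at 13.5, 14 and 12.8 CPM against 7.32, 7.58 and 8.4 CPM (log2 0.79 ± 0.072). Both were counted far below the median level of their lists, 819 CPM for the small and 893 CPM for the large subunit. Ribosomal protein genes have many processed pseudogenes, so reads of near-identical copies may be shared or lost. Of 17 snoRNA host genes, whose introns carry the guides of rRNA modification, 11 were lower and 4 higher (median -0.48); 2 were higher under upper quartile scaling or without library 2 of RBM17 knockdown. SNHG5 stood at 81.2, 78.2 and 80.6 CPM in RBM17 knockdown, 194, 208 and 217 CPM in CHERP knockdown and 129, 132 and 151 CPM in control (log2 -1.37 ± 0.053), and EPB41L4A-AS1 (-1.28) and GAS5 (-0.83) were also lower, while DANCR (0.63) and SNHG17 (0.47) were higher. Translation factor genes and TPT1, all outside these lists, were named after their values were seen. EEF1A1, which brings tRNA to the ribosome, stood at 5306, 5489 and 5838 CPM against 8713, 9110.4 and 9606 CPM (log2 -0.72 ± 0.062). EEF2 (-0.87), TPT1 (-1.0) and EIF3E (-0.74) were lower too.

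Ribosomal protein and elongation factor mRNAs typically begin with a C followed by a run of pyrimidines, the 5′ terminal oligopyrimidine tract, through which LARP1 and mTOR signalling act on their translation and stability. A start with C and at least 4 further pyrimidines at a RefSeq start was found in 47 of 64 ribosomal protein genes with a promoter (73.4%), of which 41 were lower and 1 higher. Of the 17 with another start, 14 were lower. Among other protein-coding genes, 832 of 12603 (6.60%) had such a start; 32.9% of them were higher and 33.3% lower (median -0.01), against 43.6% and 20.6% for genes with other starts (median 0.12). At 100 CPM or more, 192 genes with a pyrimidine start had 32.3% higher and 39.1% lower (median -0.03), and 1654 with another start had 58.5% higher and 12.6% lower (median 0.20). These shares are descriptions without a test. Sequences around RefSeq starts are printed below (GRCh38.p14, 10 bases before the start and 20 from it). Those of ribosomal proteins are RPS6 (chr9:19380217-19380246, minus strand), RPL3 (chr22:39319604-39319633, minus strand), RPL13A (chr19:49487598-49487627, plus strand) and RPS9 (chr19:54200848-54200877, plus strand). The others are EEF1A1 (chr6:73521013-73521042, minus strand), EEF2 (chr19:3985444-3985473, minus strand), TPT1 (chr13:45341164-45341193, minus strand) and SNHG5 (chr6:85678714-85678743, minus strand). They are a selection of the genes whose values are given here, and all were lower in RBM17 than in CHERP knockdown. RPS10 and RPL17, which were higher, are not printed. Capitals mark the C and the pyrimidine run from the start; RPL3 has too short a run from its listed start to be marked.
RPS6: gaagttggccCTCTTTTCCgtggcgcctcg
RPL3: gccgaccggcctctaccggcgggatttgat
RPL13A: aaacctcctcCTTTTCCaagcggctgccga
RPS9: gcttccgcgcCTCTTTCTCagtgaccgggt
EEF1A1: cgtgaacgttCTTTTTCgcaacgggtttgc
EEF2: cgtcagcgttCTCTTCCgccgtcgtcgccg
TPT1: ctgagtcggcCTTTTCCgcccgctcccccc
SNHG5: gcacttcggtCTTTTacgtcggccttcgcg

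**Figure D4:**
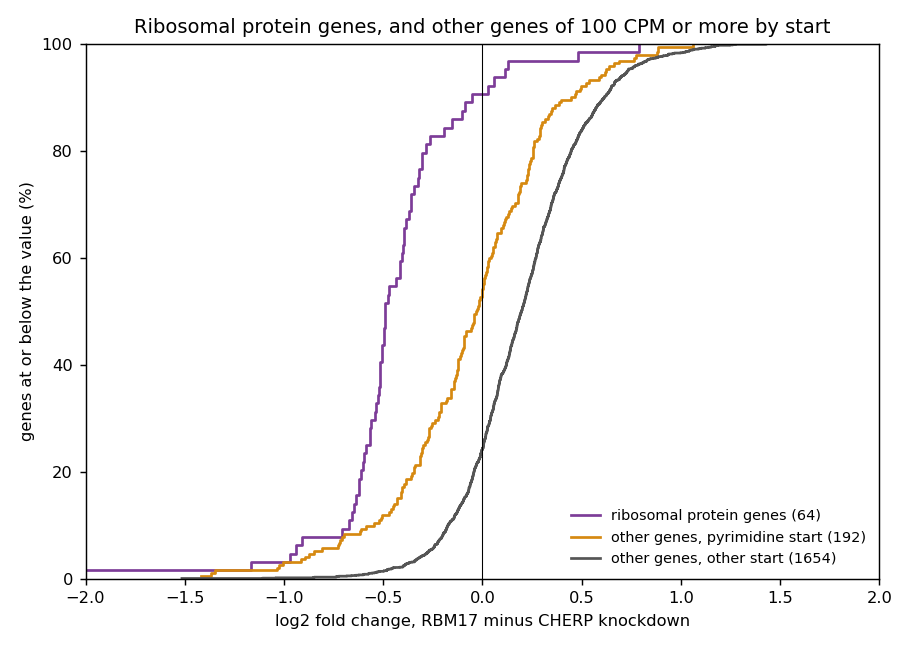
Cumulative percent of genes at or below each log2 difference, RBM17 knockdown minus CHERP knockdown, for 64 ribosomal protein genes, 192 other genes of at least 100 CPM with a pyrimidine start and 1654 with another start; RPS6 at -3.64 lies beyond the left edge of the axis. The ribosomal curve lies left of the others over most of its range, and the pyrimidine-start curve (median -0.03) lies left of that of other starts (median 0.20).

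Several genes of growth arrest and stress were lower in RBM17 than in CHERP knockdown. MDM2, a ubiquitin ligase, stood at 88.1, 98.1 and 97.3 CPM in RBM17 knockdown, 164, 214 and 233 CPM in CHERP knockdown and 109.8, 116 and 115 CPM in control (log2 -1.11 ± 0.12, adjusted p = 9.95e-05). GDF15, a secreted stress cytokine, stood at 0.613, 0.691 and 0.845 CPM, 3.26, 7.01 and 7.62 CPM and 1.42, 1.23 and 1.34 CPM in the same order (log2 -3.06 ± 0.40, adjusted p = 0.00178). Groups did not overlap in these genes, although library 1 of CHERP knockdown was the lowest of its group in both. DDB2 (-1.10), of DNA repair, CCNG1 (-0.89) and the cyclin-dependent kinase inhibitor gene CDKN1A (-0.56) were lower, and SESN2 (0.96) was higher. These genes were picked out singly, and no count over a list is given for them.

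Genes linked to ATF4, the transcription factor of the integrated stress response, showed no common direction, with 13 of 27 higher and 8 lower (median 0.01), and 11 and 13 under upper quartile scaling (median -0.15). PSPH (0.87), of serine synthesis, was higher. ATF5, at 7.1, 6.67 and 6.89 CPM against 14, 18 and 16.8 CPM (log2 -1.24 ± 0.085), SLC7A11 (-0.81), MTHFD2 (-0.70) and ASNS (-0.24) were lower. ATF4 itself had a log2 difference of -0.02 ± 0.056 and was not called, except under upper quartile scaling (-0.18). Immediate-early genes had 10 of 28 higher and 6 lower (median -0.06; 10 lower without library 1 of RBM17 knockdown; 7 higher and 11 lower under upper quartile scaling), and both knockdowns were below control in the list's median (-0.48 and -0.52). EGR1, the zinc finger factor induced by growth factors, stood at 14.8, 6.11 and 8.62 CPM in RBM17 knockdown, 14.9, 17 and 19.4 CPM in CHERP knockdown and 59.7, 56.4 and 51.1 CPM in control. Its direct difference was not called (log2 -0.79 ± 0.38, adjusted p = 0.155); without library 1 of RBM17 knockdown, the highest of its group, it was -1.22 with an adjusted p of 2.63e-04, and with all 12 libraries in the fit it was called at -0.79 (adjusted p = 0.0381). ARC likewise moved from -0.28, not called, to -0.60 and called without that library. JUN (0.66) and the matricellular gene CTGF (1.30) were higher, and BTG2 (-0.73) and IER2 (-0.40) lower. Genes of the repressor CIC and of ERK feedback had 10 of 22 higher and 5 lower (median 0.08, and -0.07 under upper quartile scaling); 3 were lower without library 2 of RBM17 or library 3 of CHERP knockdown. Within this list ETV1 (1.76), DUSP4 (1.34), SPRED2 (1.28) and EPHA2 (1.06) were higher, and SPRED3 (-1.51) and CIC itself (-0.44) were lower. Members of 1 pathway, and of 1 small family such as the SPRED genes, thus lay on both sides.

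In the cell cycle lists the members were also divided. DNA replication genes had 9 of 42 higher and 16 lower (median 0.00, and -0.15 under upper quartile scaling), and both knockdowns were above control in the list's median (0.40 and 0.32). CDT1, which loads the replicative helicase, stood at 152, 154 and 156 CPM in RBM17 knockdown, 371, 411 and 391 CPM in CHERP knockdown and 232, 209 and 230.1 CPM in control (log2 -1.35 ± 0.052, adjusted p = 3.36e-11). CDT1 was therefore below control in one knockdown and above it in the other. ORC6 (-0.76), of the origin recognition complex, was lower, and GINS2 (0.49) and the clamp loader gene RFC5 (0.42) were higher. Mitotic genes had 21 of 45 higher and 4 lower (median 0.14; 2 lower without library 3 of RBM17 or library 2 or 3 of CHERP knockdown), and 15 higher and 9 lower under upper quartile scaling (median -0.02), with the kinetochore genes CENPE (0.61) and BUB1 (0.55) higher. Cohesin and condensin genes had 7 of 26 higher and 10 lower (median -0.08; 3 higher without library 2 of RBM17 knockdown), and 1 higher and 16 lower under upper quartile scaling (median -0.24). The meiotic subunit genes SMC1B (-2.14), RAD21L1 (-0.77), STAG3 (-0.64) and REC8 (-0.55), the last 3 picked out after their values were seen, were the lowest of this list.

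Matrix genes differed strongly one by one. Collagens had 14 of 26 higher and 6 lower (median 0.30), and 9 and 8 under upper quartile scaling (median 0.15). COL14A1, a fibril-associated collagen, stood at 97.2, 99.3 and 97.7 CPM in RBM17 knockdown, 26.1, 24.4 and 23 CPM in CHERP knockdown and 91, 83.4 and 89.1 CPM in control (log2 2.00 ± 0.055, adjusted p = 9.62e-13). COL12A1, of the same class, stood at 12.2, 10.5 and 10.7 CPM, 2.71, 2.34 and 2.17 CPM and 5.77, 5.94 and 5.97 CPM (log2 2.21 ± 0.096). COL14A1 was thus low chiefly after CHERP knockdown, and COL12A1 was above control after RBM17 knockdown and below it after CHERP knockdown. COL2A1 (0.98) was higher and COL7A1 (-1.08) lower. Laminins and integrins had 14 of 28 higher and 6 lower (median 0.17), and 11 and 10 under upper quartile scaling (median 0.02), ITGB1 (0.67) among the higher. Aldehyde dehydrogenases had 6 of 18 higher and 5 lower (median 0.03), and 6 and 9 under upper quartile scaling (median -0.12). ALDH1A2, which makes retinoic acid, stood at 164, 181 and 179 CPM against 76.8, 71.7 and 69.8 CPM with 74.7, 77.9 and 83.3 CPM in control (log2 1.26 ± 0.055), while its relative ALDH1A3 was lower (-1.05). ALDH8A1 stood at 2.64, 2.08 and 2.84 CPM and 1.24, 1.35 and 1.29 CPM against 14, 13.1 and 10.9 CPM in control, so the direct difference (0.96) lay within a fall in both knockdowns.

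**Figure D5:**
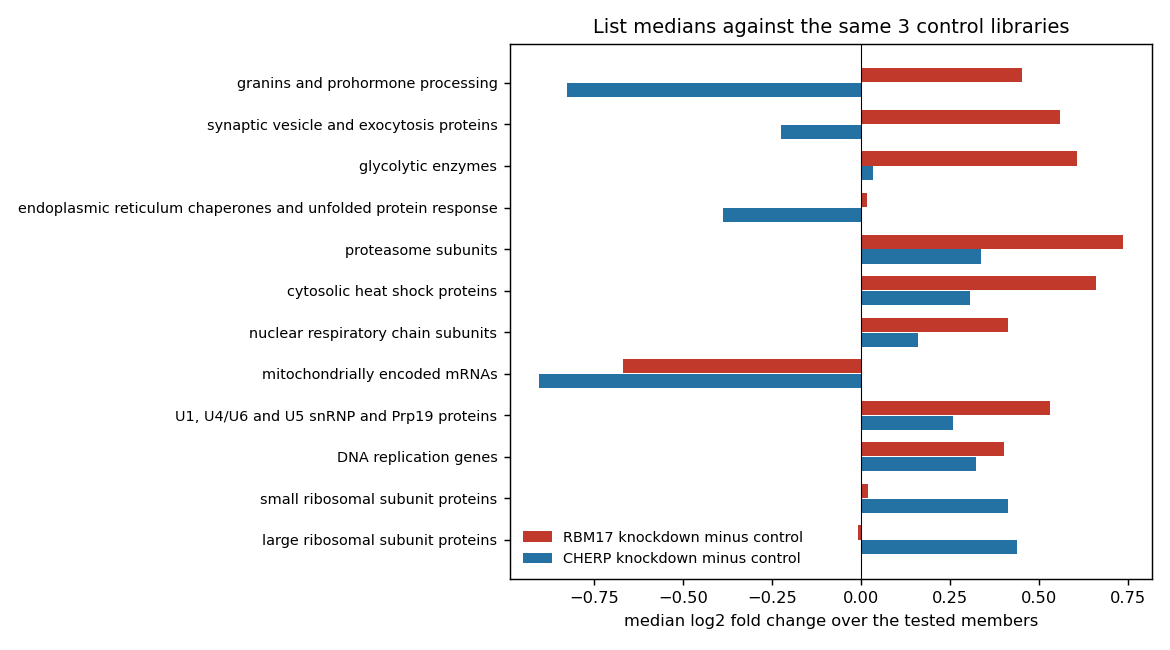
Median log2 difference from control of gene lists in RBM17 knockdown (red) and CHERP knockdown (blue); the 2 comparisons share the 3 control libraries. ER chaperones lie at 0.02 and -0.39, glycolytic genes at 0.61 and 0.03, and large-subunit ribosomal proteins at -0.01 and 0.44.

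Some genes moved far from control in both knockdowns and hardly differed between them. TXNIP, an inhibitor of thioredoxin and glucose uptake, stood at 100.3, 95.9 and 92 CPM in RBM17 knockdown, 101.3, 107 and 86.8 CPM in CHERP knockdown and 37.4, 38.5 and 41.7 CPM in control. Its direct log2 difference was -0.04 ± 0.068 (95% interval -0.18 to 0.11, adjusted p = 0.686), and -0.19 and called under upper quartile scaling. TRIM71, a ubiquitin ligase of early development, stood at 35.3, 37.3 and 38.3 CPM, 33.4, 37.1 and 38.2 CPM and 17.3, 17.7 and 18.4 CPM in the same order, with a direct difference of 0.03 ± 0.059 (95% interval -0.10 to 0.15). On the falling side, SAT1, which acetylates polyamines, stood at 13.4, 11 and 11.8 CPM and 10.8, 12 and 11.6 CPM against 27.9, 27.2 and 30.1 CPM in control, with a direct difference of 0.07 ± 0.077 (95% interval -0.09 to 0.24). MGAM (0.12), ENPP2 (0.05) and ADGRG6 (0.08) were the other genes chosen for this pattern, so their small differences are a description and not a test of likeness.

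Marker genes checked the cells against their label. Of 11 kidney epithelium markers 8 were tested, with 3 higher and 2 lower (2 and 4 under upper quartile scaling), and their summed level was 117 to 119 CPM in RBM17 knockdown, 112 to 121 CPM in CHERP knockdown and 85.6 to 93.5 CPM in control. PAX2 (1.62) and CDH1 (1.00) were higher. Adrenal and neural crest markers, of which 6 of 11 were tested, summed to 1.63 to 2.11 CPM and 2.01 to 2.69 CPM, with 0 higher and 2 lower and SOX10 at 0 in all 6 libraries; 1 of the 2, STAR or CYP17A1, lost its call without library 1 or 3 of either group. Fibroblast markers summed to 386 to 430 CPM against 475 to 545 CPM, and VIM (293 against 391 CPM on average; log2 -0.42) and FBN1 (95.7 against 103 CPM) carried nearly all of it. Of 9 tested, 3 were higher and 2 lower, with a median of 0.06 that became -0.09 under upper quartile scaling. Blood and endothelial markers summed to 3.86 to 4.24 CPM and 4.42 to 5.38 CPM, with 2 higher, 2 lower and HBB at 0 in all 6 libraries; KDR, at 0.992, 1.05 and 0.892 CPM against 0.165, 0.159 and 0.178 CPM, was the largest difference among them. The part of these levels in any gene group was not tested.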

How the data were processed

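The submitters' processing notes name HISAT2 2.0.5, SAMtools, HTSeq and GRCh38, and the authors deposited 1 table of raw read counts per gene and library; the sources used here give neither annotation release nor strand setting. Of 60554 gene identifiers, 56996 were named through GENCODE 29. The 3 RBM17 and 3 CHERP knockdown libraries were fitted with edgeR 4.0.16 in R 4.3.3 (filterByExpr, TMM, robust quasi-likelihood test, Benjamini-Hochberg adjustment over 27250 genes, called below 0.05). Each knockdown was compared with control in a fit of all 12 libraries with the same genes and scaling. The script was tested on simulated data. Lists are described by counts and medians, with no set test. Named genes are the targets, the 10 largest increases and decreases at 5 CPM or more without overlap, the 3 largest each way of other biotypes, genes opposite or alike against control, and list members; members, lists and rules were chosen with earlier results of these data known. Some genes and 1 list that these rules cover are not reported here. With 252505520 or more counts a library, small differences are called (median SE 0.12). Alternatives were other scalings (DESeq2 1.42.0 size factors, upper quartile), DESeq2's Wald test, other filters, protein-coding genes alone, a GC and length offset and leaving out each library. Promoters come from RefSeq (GRCh38.p14) and were found for 14466 tested genes.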

Additional observations from a re-analysis of the deposited data

How the results depend on the processing

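The number of genes called was 14483 and stayed within 1.5 times of this under every alternative, from 12559 to 14507 when each library was left out in turn. At 2-fold or more, 978 genes were called with a minimum of 1 CPM in 3 libraries (397 higher, 581 lower, of 15466 tested) and 1521 with protein-coding genes alone (575 higher, 946 lower, of 15955 tested), against 3203 of 27250; fewer genes were tested in both. Of 230 named genes under up to 14 alternatives (3199 values), 33 values in 12 genes lost the call and 14 gained one. Among genes called in the main fit, 0 values changed direction. The other 3152 values were counted as unchanged, and these include any change of direction in a gene that was not called in the main fit. Beside the changes given with each list, leaving out 1 library moved small counts in lists: chaperonin genes had 1 lower, not 2, without library 1 or 2 of RBM17 or any 1 library of CHERP knockdown. Nonsense-mediated decay factors had 1 lower, not 2, without library 1 or 3 of RBM17 or library 2 or 3 of CHERP knockdown. Sm and LSm genes had 1 lower, not 2, without library 3 of RBM17 or library 2 or 3 of CHERP knockdown. Without library 1 of RBM17 knockdown 3 small- and 2 large-subunit ribosomal genes were higher, not 1 each, and 2 glycolytic and 2 proteasome genes were lower, not 1 each; without library 1 of CHERP knockdown 2 proteasome genes were lower, and without library 3 of either group 0. Of markers, 1 fibroblast gene was lower, not 2, without library 1 of RBM17 or library 2 of CHERP knockdown, and 1 blood gene higher, not 2, without library 3 of RBM17 knockdown. Against control, 14073 to 15347 genes were called in RBM17 knockdown and 12402 to 13459 in CHERP knockdown when each control library was left out. No paired analysis was possible because the labels number every library separately and the replicate numbers follow accession order. Low counts limit the granins, complexins and marker genes below 1 CPM in a group.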

Other observations

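Long non-coding genes lay on the lower side of the contrast. Of 6223 tested, 7.5% were higher and 31.9% lower in RBM17 than in CHERP knockdown (median log2 difference -0.34), and the 390 at 5 CPM or more had 24.4% higher and 45.9% lower (median -0.14). Protein-coding genes varied with their level: those below 0.3 CPM had a median of -0.38, and those at 100 CPM or more a median of 0.16 with 53.8% higher and 17.7% lower. They also varied with GC content. At 5 CPM or more, 37.1% were higher below 40% GC (median 0.05) and 59.8% at 60% GC or more (median 0.25). With the offset for GC content and length, REST and its corepressors had 5 higher and 8 lower. G-patch and DEAH genes then had 6 and 6, immediate-early genes 5 and 11, and granins still 12 and 0. Processed pseudogenes, 2712 in number, had a median of -0.32, with -0.10 against control in RBM17 knockdown and 0.26 in CHERP knockdown. The share of counts on non-coding genes was lower in RBM17 knockdown libraries, and its part in these medians was not tested.

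Among lists not yet described, cholesterol synthesis had 14 of 24 genes higher and 2 lower (median 0.21), with TM7SF2 (0.68) and the squalene synthase gene FDFT1 (0.49) higher and the mevalonate kinase gene MVK (-0.56) lower; 6 were lower without library 1 of RBM17 knockdown, and 9 were higher and 5 lower under upper quartile scaling (median 0.05). Aminoacyl-tRNA synthetases had 11 of 20 higher and 4 lower (median 0.18), but 6 higher and 7 lower under upper quartile scaling (median 0.03), with VARS at 0.76 and QARS at -0.44. Interferon response genes had 3 of 19 higher and 5 lower (median -0.05), and 2 and 8 under upper quartile scaling (median -0.20), with the class I light chain gene B2M at 0.31 and IRF7 at -0.95. Alpha-arrestins had 1 of 5 higher and 0 lower (median -0.04), and 1 and 2 under upper quartile scaling.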
